A study of Homo sapiens with 18 samples.

Results

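The ELL and EAF elongation factors and 3 of their working partners were followed here across androgen and antagonist treatment of LNCaP, a human prostate cancer cell line. The 8 genes were EAF1, EAF2, ELL, ELL2, ELL3, AFF4, CDK9 and CCNT1, taken by symbol from the annotation of the array, out of 14434 genes with a tested probe. They were singled out because EAF2 and ELL2 were higher with DHT than with DMSO in these same arrays, so that contrast is described below and supports nothing by itself. CCNT1 had 3 probes and every other gene 1, and all 10 probes passed the filter on dim probes, a mean above 6.31 on the log2 scale of the normalized signal.

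RNA polymerase II pauses soon after it starts on many genes, and its release and speed afterwards depend on elongation factors. ELL, ELL2 and ELL3 bind the polymerase and raise its rate of elongation, and EAF1 and EAF2 are partner proteins that bind ELL proteins and increase that activity. AFF4 is the scaffold that holds an ELL protein together with CDK9 and cyclin T1, the product of CCNT1, in the super elongation complex. CDK9 with cyclin T1 is the kinase P-TEFb, which phosphorylates the polymerase and the factors that hold it in the pause.

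The 18 arrays were Illumina human expression arrays of total RNA, in 6 groups of 3. All cells were kept in charcoal-stripped serum, which is poor in steroids, and were treated for 24 h with the vehicle DMSO, with the androgen DHT (dihydrotestosterone), with the androgen receptor antagonist flutamide at 1 µM, with the antagonist MJC13 at 30 µM, or with DHT together with either antagonist. DHT was at 10 nM per the labels, whereas the study's own text gives a lower dose for these arrays. The 2 antagonists were at different concentrations, each chosen by the study for maximal inhibition of responses to DHT at that lower dose. LNCaP is a single line with a mutant androgen receptor on which flutamide has been reported to act in part as an agonist. The study saw no prominent agonism of flutamide on gene expression in these cells, although flutamide raised their proliferation. The labels give replicate numbers but do not say that replicates were separate cultures, so the p-values measure the spread between these samples, which may be technical. The arrays read the RNA of a whole culture, in which fewer cells of a type and less RNA per cell cannot be told apart.

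As a check of the label, the luminal prostate genes KRT8 and HOXB13 averaged 11.57 and 11.98 on the log2 scale. The other luminal genes looked up averaged 11.38 (TMPRSS2), 8.56 (KRT18), 8.001 (KLK3) and 7.55 (KLK2). KRT5, KRT14, PTPRC, CD3E and COL1A2, markers of basal, blood and connective tissue cells, lay under the filter. Of the other marker probes, VWF averaged 9.58, COL1A1 7.72, DCN 6.87 and PECAM1 6.42, above the filter, none of the 4 was called for DHT over DMSO (limma adjusted p of 0.616 to 0.97), and their part in the results was not tested. KLK2, a kallikrein gene induced by androgen, was higher with DHT by 2.23 (log2; limma adjusted p = 0.00181). The other 3 androgen-induced genes looked up were not called: KLK3 at 2.41 (adjusted p = 0.0738), TMPRSS2 at 1.17 (adjusted p = 0.225) and FKBP5 at 0.91 (adjusted p = 0.168).

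The regions upstream of 4 of the genes are shown because they set the pair EAF2 and ELL3, both higher in every DHT array than in every DMSO array, beside their paralogs EAF1 and ELL, whose arrays overlapped. Each is the 250 bases before the RefSeq start of the gene, on the gene's own strand, from the promoter table of build GRCh38.p14, which held 7 of the 8 genes (not ELL2). Capitals mark matches, on either strand, to 4 motifs: AGAACA (the half-site of androgen response elements), CCAAT (the box of that name), the GC box GGGCGG and the ETS factor core CGGAAG. No base was shared by matches of different motifs. The EAF2 sequence lies at chr3:121834959-121835208 on the plus strand and the EAF1 sequence at chr3:15427348-15427597 on the plus strand. The ELL3 sequence lies at chr15:43776967-43777216 on the minus strand and the ELL sequence at chr19:18522071-18522320 on the minus strand.
EAF2: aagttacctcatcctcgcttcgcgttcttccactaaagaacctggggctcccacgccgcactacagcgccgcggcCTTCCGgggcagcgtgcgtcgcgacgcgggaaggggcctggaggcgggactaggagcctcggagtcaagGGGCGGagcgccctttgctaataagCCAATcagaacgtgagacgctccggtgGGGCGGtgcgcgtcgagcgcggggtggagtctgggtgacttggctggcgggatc
EAF1: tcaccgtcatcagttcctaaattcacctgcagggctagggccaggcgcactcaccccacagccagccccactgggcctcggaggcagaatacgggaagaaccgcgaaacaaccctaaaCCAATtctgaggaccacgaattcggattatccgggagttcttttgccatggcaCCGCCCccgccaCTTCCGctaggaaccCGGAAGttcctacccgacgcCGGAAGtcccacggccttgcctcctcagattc
ELL3: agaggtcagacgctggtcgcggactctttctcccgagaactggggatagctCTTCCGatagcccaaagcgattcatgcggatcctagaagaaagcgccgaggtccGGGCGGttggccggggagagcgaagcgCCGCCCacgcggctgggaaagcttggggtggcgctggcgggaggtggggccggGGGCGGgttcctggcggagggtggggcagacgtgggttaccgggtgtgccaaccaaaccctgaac
ELL: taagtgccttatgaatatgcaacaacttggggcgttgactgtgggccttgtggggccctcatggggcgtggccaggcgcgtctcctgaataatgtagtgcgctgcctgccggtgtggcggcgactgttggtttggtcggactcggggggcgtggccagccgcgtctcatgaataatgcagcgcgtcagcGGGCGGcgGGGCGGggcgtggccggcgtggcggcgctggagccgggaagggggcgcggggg

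AGAACA or its complement was in none of the windows of the 7 genes, including these 4, and in 12.4% of all 35116 promoter windows of the same length. CCAAT occurred once in EAF2 and once in EAF1 and was in 32.0% of all windows. The GC box occurred 2 times in EAF2, 1 time in EAF1, 3 times in ELL3 and 2 times in ELL, and was in 42.6% of all windows. CGGAAG occurred 3 times in EAF1, 1 time in EAF2, 1 time in ELL3 and 0 times in ELL, and was in 16.5% of all windows. These are matches of letters, and the arrays carry no measure of binding at them.

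EAF2, which makes an ELL partner, had the widest range among the 10 probes. In the 3 DMSO arrays its log2 signal was 8.96, 9.16 and 9.04, and in the 3 DHT arrays it was 10.47, 10.80 and 9.62. Every DHT array was above every DMSO array, but the third was closer to the DMSO arrays than to the highest DHT array. The mean difference was 1.24 (log2, SE 0.24), or 2.37-fold, the contrast on which EAF2 was chosen.

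With an antagonist present, the EAF2 signal with DHT lay between these levels. It was 9.62, 9.74 and 9.29 in cells given DHT with flutamide, and 9.10, 9.39 and 9.57 with MJC13 in place of flutamide. Without DHT it was 8.86, 8.53 and 9.004 with flutamide and 8.78, 9.17 and 9.01 with MJC13. The flutamide arrays with DHT were all above those without, while the MJC13 arrays overlapped, as the lowest with DHT was under the highest without. In order of their means the groups were DHT (10.30), DHT with flutamide (9.55), DHT with MJC13 (9.35), DMSO (9.05), MJC13 (8.99) and flutamide (8.80), and every neighbouring pair in this order overlapped in range.

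ELL2, the ELL paralog that joins AFF4 in many super elongation complexes, also had its highest group mean with DHT. Its log2 signal was 9.04, 9.39 and 8.68 in the DMSO arrays and 10.16, 9.91 and 9.99 in the DHT arrays. The DHT arrays were close together and well above the DMSO arrays, by 0.98 (log2, SE 0.25), or 1.98-fold, again the contrast on which the gene was chosen.

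Under the antagonists the ELL2 arrays were more mixed. With DHT the signal was 9.46, 9.23 and 9.40 beside flutamide and 9.52, 9.29 and 9.84 beside MJC13. Without DHT it was 8.90, 9.36 and 9.07 with flutamide and 8.97, 9.59 and 8.48 with MJC13. In both cases 1 array without DHT reached into the range of those with it, and in both that was replicate 2. The group means ran from DHT (10.02) over DHT with MJC13 (9.55), DHT with flutamide (9.36), flutamide (9.11) and DMSO (9.04) to MJC13 (9.01). DHT stood apart from the next group, and all later neighbours overlapped.

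ELL3, the third ELL paralog, had the smallest standard error of the 3 genes that were higher with DHT. Its log2 signal was 11.003, 10.55 and 10.72 with DMSO and 11.52, 11.26 and 11.45 with DHT. All DHT arrays were above all DMSO arrays, by 0.66 (log2, SE 0.17), or 1.58-fold. ELL3 was included as a paralog of ELL2, and its value in this contrast too was known when the genes were chosen.

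Among the antagonist arrays, ELL3 separated by DHT throughout. With DHT it was 10.85, 11.05 and 10.997 beside flutamide and 11.13, 10.88 and 10.99 beside MJC13. Without DHT it was 10.77, 10.58 and 10.74 with flutamide and 10.84, 10.71 and 10.52 with MJC13. Each of the 6 arrays with DHT was above each of the 6 without, though the gap between the nearest values was small (10.85 against 10.84). By group mean the order was DHT (11.41), DHT with MJC13 (10.999), DHT with flutamide (10.965), DMSO (10.76), flutamide (10.70) and MJC13 (10.69). DHT was apart from the next group and all later neighbours overlapped.

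**Figure D1:**
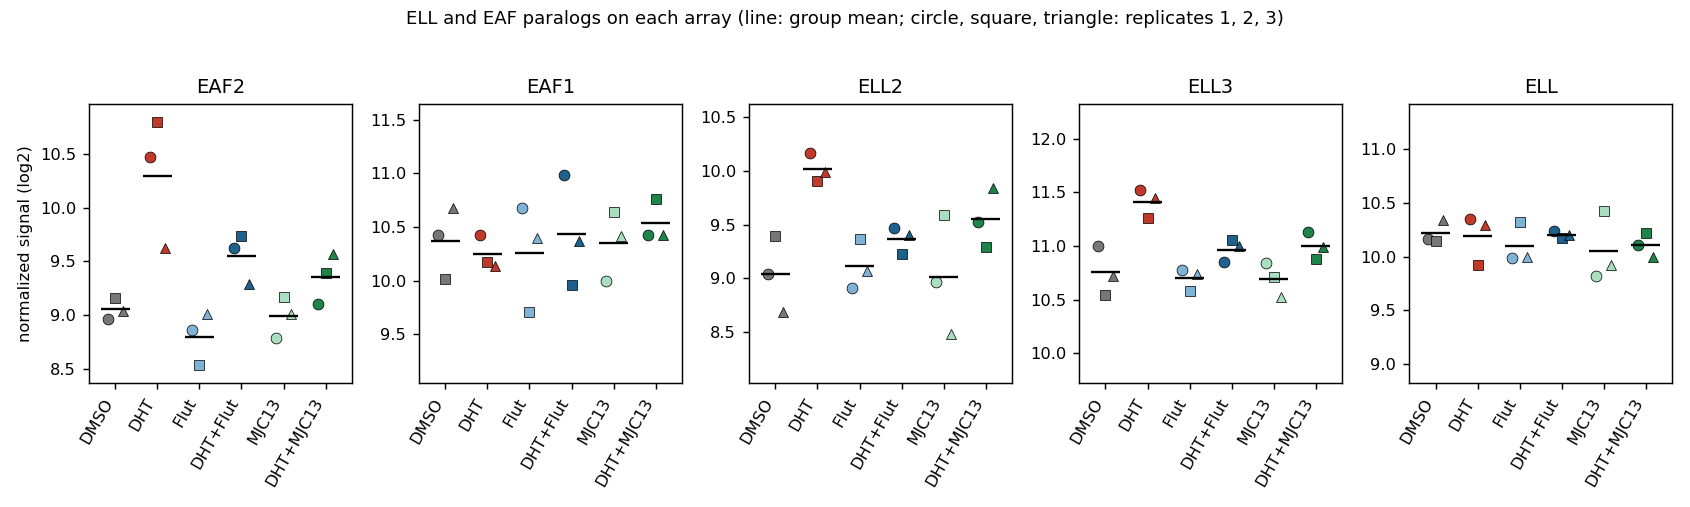
Log2 normalized signal of the 5 ELL and EAF paralogs (vertical axis, the same span of units in each panel) on each of the 18 arrays, by treatment group (horizontal axis). Points are arrays and lines are means of 3. The DHT arrays of EAF2, ELL2 and ELL3 lie above their DMSO arrays, and those of EAF1 and ELL overlap them.

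The other paralogs did not share this order. EAF1, the second ELL partner, ranged from 9.71 to 10.98 over the 18 arrays, and its DHT group had the lowest mean of the 6 (10.25, against 10.37 with DMSO). ELL ranged from 9.81 to 10.42, with group means from 10.05 (MJC13) to 10.22 (DMSO). For both genes every neighbouring pair of groups overlapped. Their differences for DHT over DMSO were -0.13 (EAF1, SE 0.27) and -0.03 (ELL, SE 0.18) on the log2 scale.

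The partners that complete the super elongation complex were as level in that contrast. The difference was -0.04 (log2, SE 0.19) for AFF4, the scaffold, and -0.05 (SE 0.17) for CDK9, the kinase. CDK9 ranged from 10.09 to 10.77 over the 18 arrays. The 3 CCNT1 probes differed by 0.11, -0.25 and -0.01 (SE 0.24, 0.27 and 0.25). The probe with the first of these values was designed on a transcript outside RefSeq and the other 2 on the RefSeq transcript of the gene, so whether the 3 read the same RNA is not known.

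In the fit of all genes by limma, where a call needed an adjusted p (Benjamini-Hochberg) below 0.05, DHT over DMSO called 54 of 28334 probes, or 0.191%, of which 50 were higher with DHT. Of the 10 member probes 1 was among them, EAF2, at rank 51 by p. Since the genes were chosen from this contrast, nothing is read from that count. The call rests on the choice of fit, as its adjusted p of 0.0396 became 0.0871 with no filter on dim probes, 0.082 in a fit of DMSO and DHT alone and 0.0872 with the number of the sample description as a block. With the replicate number of the titles as a block it was 0.0121, ELL3 was called as well (adjusted p = 0.0393), and the calls over all probes went from 54 to 469. The EAF2 call was also lost without any 1 of 5 of the 6 arrays (0.195, 0.151 and 0.103 without DMSO replicate 1, 2 or 3, and 0.215 and 0.227 without DHT replicate 1 or 2), and was 0.0139 without DHT replicate 3, the low array. Arrays with DHT were all above those with DMSO for 3 of the 10 member probes (EAF2, ELL2 and ELL3) and for 7.94% of all probes.

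Whether the genes also differed by DHT when an antagonist was present was read from the 12 antagonist arrays. None of them enters the contrast of DHT over DMSO, but the genes were chosen with results of all 6 groups known, so the p-values below are not shown to be independent of that choice. In the presence of flutamide, DHT was followed by a difference of 0.75 (log2, SE 0.24) for EAF2, 0.25 (SE 0.25) for ELL2 and 0.27 (SE 0.17) for ELL3. In the presence of MJC13 the differences were 0.37 (SE 0.24) for EAF2, 0.54 (SE 0.25) for ELL2 and 0.31 (SE 0.17) for ELL3. All 6 values were above 0. So were those of EAF1 (0.18 with flutamide, 0.19 with MJC13) and ELL (0.10 and 0.06). The CCNT1 probe outside RefSeq (0.25 and 0.21) and a RefSeq CCNT1 probe (0.12 and 0.03) were above 0 too. AFF4 (-0.15 and -0.46) and CDK9 (-0.25 and -0.008) were below 0, and the other RefSeq CCNT1 probe was mixed (0.38 and -0.21). The values of EAF2, ELL2 and ELL3 are not ranked against the differences without antagonist, since the genes were chosen for those. The groups with and without DHT did not overlap, with DHT higher, for 2 of 10 probes with flutamide (EAF2 and ELL3; 3.72% of all probes) and for 1 with MJC13 (ELL3; 5.54% of all probes).

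No member passed the limma threshold in either response. None of the 28334 probes did so with flutamide (0%), where 1314 had an unadjusted p under 0.05, among them EAF2 alone of the members (unadjusted p = 0.00643 by limma, adjusted p = 0.99). With MJC13 none did either (0%), with 1604 at an unadjusted p under 0.05, among them ELL2 (unadjusted p = 0.0417 by limma, adjusted p = 0.879) and AFF4 (0.028 and 0.879). With the replicate number as a block, 4 probes were called with flutamide and 5 with MJC13, again with no member among them. With 3 arrays against 3, the exact permutation test of a single probe cannot go below p = 0.1.

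Averaged over both antagonists, the response rested on 6 arrays with DHT and 6 without. It was 0.56 (log2, SE 0.17, 95% interval 0.20 to 0.92) for EAF2, 0.40 (SE 0.17, interval 0.03 to 0.76) for ELL2 and 0.29 (SE 0.12, interval 0.04 to 0.54) for ELL3. Across all genes limma called 1 probe (0.00353%), which was not a member, and the adjusted p was 0.646 for EAF2, 0.828 for ELL2 and 0.8 for ELL3. At an unadjusted p under 0.05 were 4 of the 10 member probes (EAF2, ELL2, ELL3 and, in the other direction, AFF4), against 1643 probes or 5.8% of all. Because results of these arrays were known when the genes were chosen, nothing is read from that count either.

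The exact two-sided permutation test, with the DHT label exchanged within each antagonist (400 arrangements, smallest possible p = 0.005), gave p = 0.01 for EAF2, p = 0.06 for ELL2 and p = 0.005 for ELL3. The same exact test gave p = 0.045 for AFF4 and 0.12 or more for the other 6 probes. These 10 values are not adjusted for one another, and the genes were chosen with results of these arrays known. Each of the 12 arrays was then left out in turn. Exact p ran from 0.005 to 0.02 for EAF2 and from 0.005 to 0.015 for ELL3. Both stayed under 0.05, which describes these arrays and is no test apart from the choice of genes. For ELL2 the exact p ran from 0.015 to 0.165 and fell under 0.05 without flutamide replicate 2 (p = 0.035 and a difference of 0.46) and without MJC13 replicate 2 (p = 0.015 and a difference of 0.54), the 2 arrays that reached into the range of the DHT arrays. ELL3 was the only member with all 6 arrays with DHT above all 6 without, as were 0.152% of all probes.

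**Figure D2:**
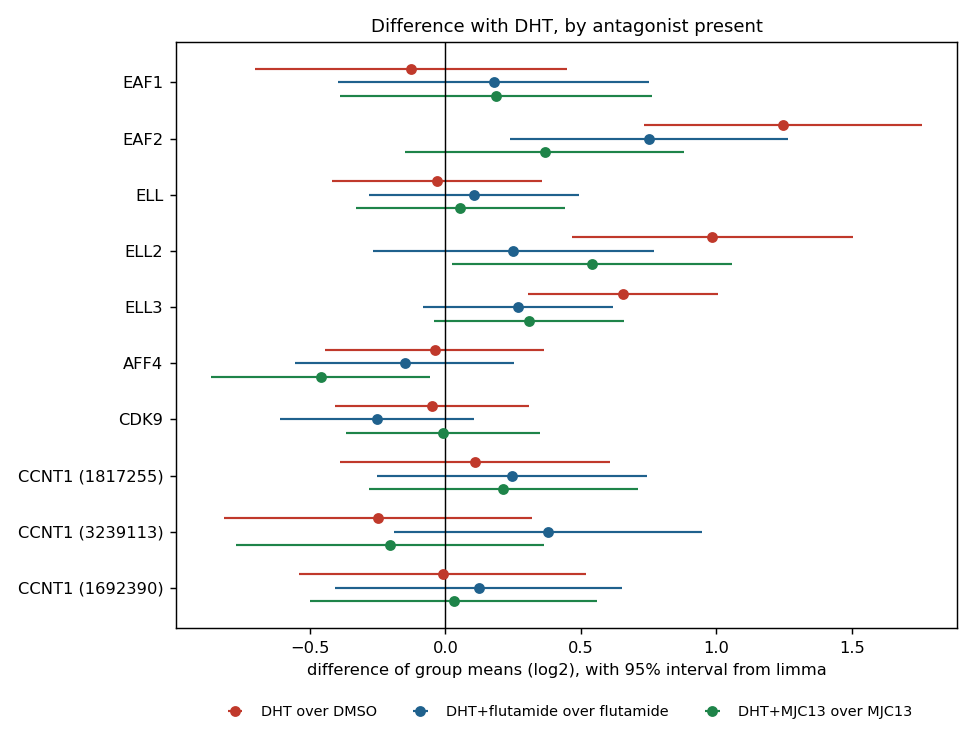
Difference of group means on the log2 scale (horizontal axis) between arrays with and without DHT for each member probe (vertical axis; CCNT1 by probe number), without antagonist, with flutamide and with MJC13. Points are differences of means of 3 arrays and bars 95% intervals from limma. EAF2, ELL2, ELL3 and the CCNT1 probe outside RefSeq (0.11, 0.25 and 0.21) lie to the right of 0 in all 3 settings. The AFF4 interval with MJC13 lies to the left of 0.

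AFF4, the scaffold of the complex, was the 1 member whose arrays with DHT were all lower than those without it in the presence of MJC13. Its log2 signal with MJC13 alone was 12.61, 12.28 and 12.23, the highest group mean of the 6 (12.37). With DHT added it was 11.84, 12.13 and 11.76. All 3 arrays with DHT were below all 3 without, as for 5.6% of all probes, and the difference was -0.46 (log2, SE 0.19).

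With flutamide the AFF4 arrays overlapped. The signal was 11.91, 12.23 and 12.22 without DHT and 11.94, 12.25 and 11.72 with it, a difference of -0.15 (log2, SE 0.19). Without antagonist the values were 11.81, 11.997 and 12.35 with DMSO and 12.09, 12.02 and 11.93 with DHT, and the DHT arrays lay inside the DMSO range. Over both antagonists the AFF4 difference was -0.30 (SE 0.14), with a limma adjusted p of 0.838, and its exact p of 0.045 ran from 0.02 to 0.095 as each array was left out. With same-numbered arrays as pairs the exact p was 0.125. Without pairs it rose above 0.05 on leaving out 9 of the 12 arrays, and stayed at or under 0.045 only without flutamide replicate 1, without replicate 2 of DHT with flutamide and without replicate 2 of DHT with MJC13.

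The remaining 6 probes had differences over both antagonists from -0.13 (CDK9) to 0.23 (the CCNT1 probe outside RefSeq), and the median over all 10 was 0.13, against -0.01 over all probes. EAF1 was at 0.18 (SE 0.19) and ELL at 0.08 (SE 0.13). Their intervals reached from -0.22 to 0.59 and from -0.19 to 0.35, so a rise of the size of ELL3 was within both.

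Whether the DHT response differed between the antagonists was read from the difference of the 2 responses, with MJC13 minus with flutamide. It was -0.39 for EAF2 (log2, 95% interval -1.11 to 0.34), 0.29 for ELL2 (-0.44 to 1.02) and 0.04 for ELL3 (-0.46 to 0.53). Of the 10 member probes none reached an unadjusted p of 0.05, and of all probes limma called 0 (0%), with 1266 at an unadjusted p under 0.05. The opposite signs for EAF2 and ELL2 were therefore within the spread of the arrays, and the intervals leave room for differences as large as the responses themselves. For ELL3 the sign itself turned when 1 of 3 arrays was left out: -0.020 without replicate 1 of DHT with flutamide, -0.047 without MJC13 replicate 3 and -0.026 without replicate 1 of DHT with MJC13.

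Set against the DHT arrays, the means of the same 3 genes were lower when an antagonist was added. These comparisons share the DHT arrays with the contrast on which the genes were chosen, and a high DHT mean by itself makes them negative. Adding flutamide went with -0.75 for EAF2, -0.66 for ELL2 and -0.45 for ELL3 (log2, SE 0.24, 0.25 and 0.17), and adding MJC13 with -0.94, -0.47 and -0.41 at the same SE. The other 7 probes lay between -0.13 and 0.30 in both. Limma called no probe with flutamide (0%; 435 at an unadjusted p under 0.05) and none with MJC13 (0%; 874).

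The antagonists alone were compared with the DMSO arrays, which the choice of genes also used. Flutamide over DMSO was -0.25 for EAF2, 0.07 for ELL2 and -0.06 for ELL3, and MJC13 over DMSO was -0.06, -0.03 and -0.07 (log2, SE as above). AFF4 was at 0.07 with flutamide and 0.32 (SE 0.19) with MJC13. None of the 10 probes reached an unadjusted p of 0.05 in either, and none of all probes was called with flutamide (0%; 730 at an unadjusted p under 0.05) or MJC13 (0%; 635). The small values for ELL2 and ELL3, and that for EAF2 with MJC13, changed sign with the array left out.

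**Figure D3:**
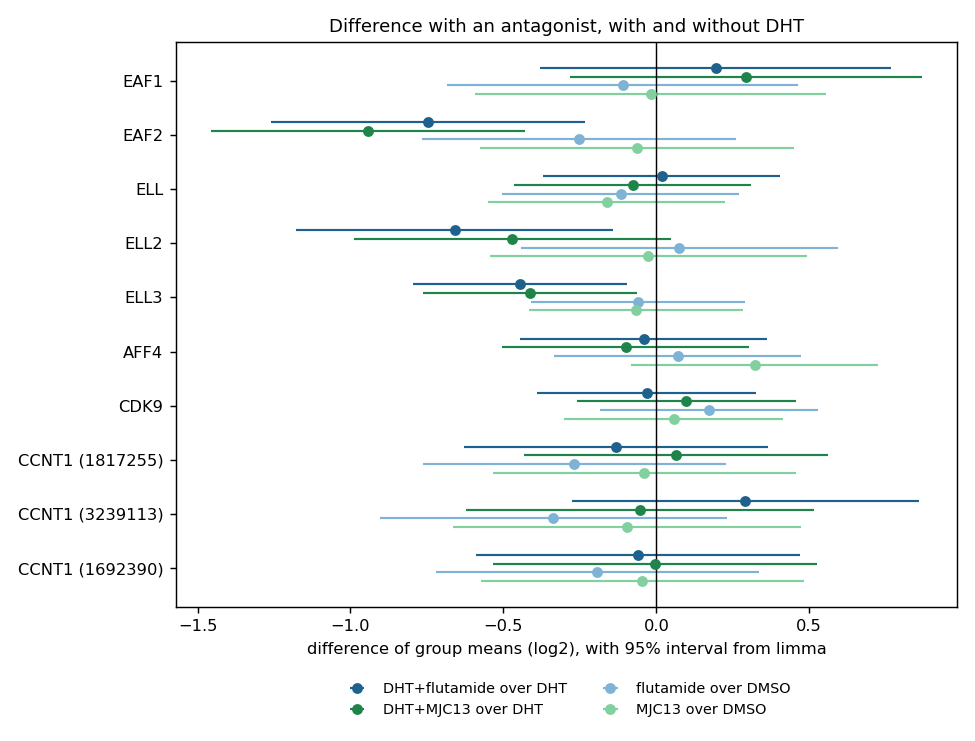
Difference of group means on the log2 scale (horizontal axis) on adding flutamide or MJC13, with DHT present or absent, for each member probe (vertical axis; CCNT1 by probe number). Points are differences of means of 3 arrays and bars 95% intervals from limma. With DHT present EAF2, ELL2 and ELL3 lie to the left of 0, at -0.41 to -0.94, and without it every interval includes 0.

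Paralogs were then compared within each array, as the difference between the log2 signals of 2 genes. The levels of different probes cannot be set against each other, so only changes of this difference count. From DMSO to DHT it grew by 1.37 for EAF2 over EAF1, by 1.01 for ELL2 over ELL and by 0.33 for ELL2 over ELL3, which restates the contrast used to choose the genes.

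In the 12 antagonist arrays the EAF2 to EAF1 difference changed by 0.57 with flutamide and 0.18 with MJC13, 0.38 on average (exact two-sided permutation p = 0.1). That of ELL2 to ELL changed by 0.15 and 0.49, 0.32 on average (exact permutation p = 0.04). ELL2 against ELL3 changed by -0.02 and 0.23, 0.11 on average (exact permutation p = 0.56), so the array data do not separate the responses of these 2 paralogs. ELL3 against ELL, a comparison added after the ELL3 values were seen, changed by 0.21 on average (exact permutation p = 0.195). These 4 p-values are not adjusted for one another and are not shown to be independent of the choice of genes.

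The ELL2 to ELL result was at the edge of the threshold. Its exact p was 0.0938 with same-numbered arrays as pairs, and 0.06 to 0.145 without any 1 of 8 of the 12 arrays. The 8 were flutamide replicate 1, replicates 1 and 3 of DHT with flutamide, MJC13 replicates 1, 2 and 3, and replicates 1 and 3 of DHT with MJC13. The average change itself stayed between 0.22 and 0.37 without any 1 of these 8 arrays. The EAF2 to EAF1 change ran from 0.21 to 0.49 with each array left out, with exact permutation p from 0.045 to 0.26. It was under the threshold only without replicate 1 of DHT with flutamide (0.49, exact p = 0.045). That array had the highest EAF1 signal of all 18 (10.98).

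**Figure D4:**
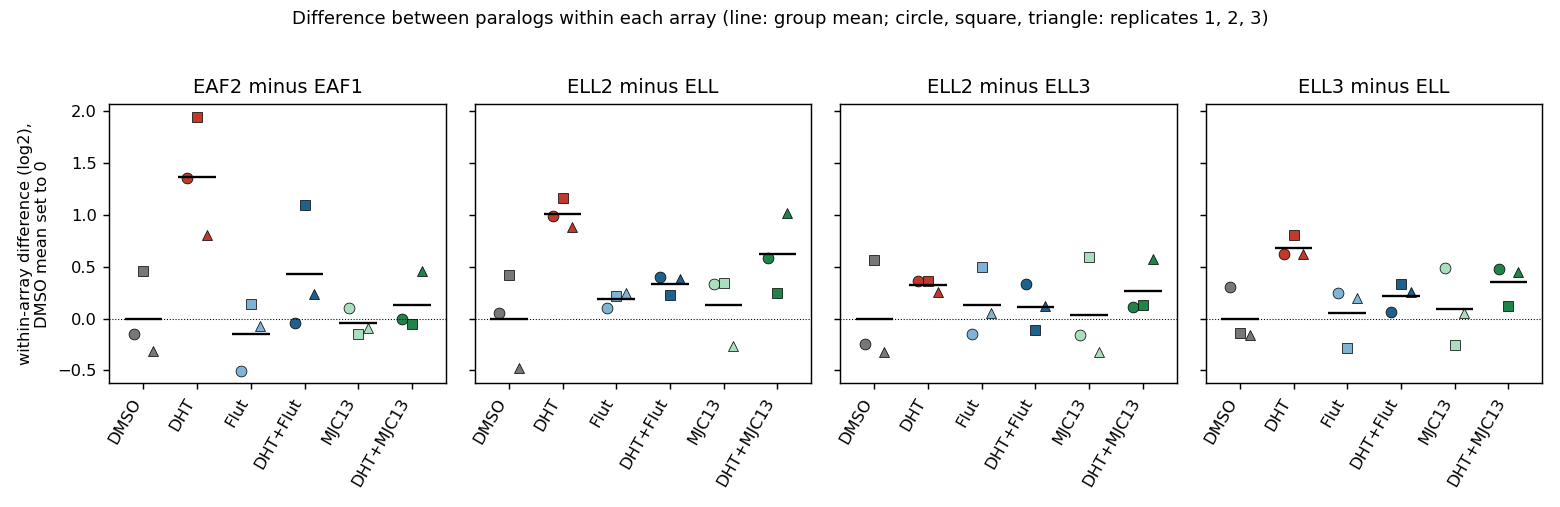
Within-array difference between the log2 signals of 2 paralogs (vertical axis), with the mean of the DMSO arrays set to 0, for the 18 arrays by treatment group (horizontal axis). Points are arrays and lines means of 3. The DHT group has the highest mean in every panel, and within each antagonist the arrays with and without DHT overlap.

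Across the 18 arrays the signals of EAF2 and ELL2 correlated at r = 0.69 and those of EAF2 and ELL3 at r = 0.73. These arrays share the treatments, so the values describe a common order of groups and are given with no test. Of 19615 probes with 1 symbol, the 5 most like EAF2 were PMEPA1 (r = 0.85), TRPM8 (r = 0.85), MPZL2 (r = 0.83), GEMIN2 (r = 0.83) and KLKP1 (r = 0.82). PMEPA1 is an androgen-induced gene of prostate epithelium, TRPM8 encodes the cold-sensing channel and KLKP1 is a pseudogene of the kallikrein cluster. The 5 most like ELL2 were CADPS2 (r = 0.88), MALT1 (r = 0.87), PIGA (r = 0.86), ERLIN1 (r = 0.85) and RHOU (r = 0.85). CADPS2 encodes a factor of vesicle secretion, MALT1 a protease of NF-kB signaling and PIGA an enzyme of GPI anchor synthesis. For ELL3, added after its values were seen, they were CRLS1 (r = 0.91), ELK4 (r = 0.90), CYB5A (r = 0.90), PMEPA1 (r = 0.89) and ORM2 (r = 0.88). PMEPA1 was on both the EAF2 and the ELL3 list, and the ELL2 list shared no gene with either.

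The wider elongation machinery was read from 8 lists with 44 genes, of which 40 were on the array and 39 had a tested probe. The lists hold the other super elongation complex subunits, the regulators of P-TEFb, DSIF and NELF, the PAF1 complex and the little elongation complex. They also hold TFIIS with elongin and TFIIF, other kinases and histone chaperones, and the ubiquitin ligases SIAH1 and SIAH2, listed under ELL2 turnover. None of the 39 genes was called for DHT over DMSO, and 19 had a mean difference above 0, with a median of -0.0011 (log2; all probes -0.0065) and a range from -0.43 to 0.65.

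In the response averaged over both antagonists none of the 39 was called either, and 21 were above 0, with a median of 0.02 (all probes -0.01). At an unadjusted p under 0.05 were 3 of the 39 genes, a share near the 5.8% of all probes, 2 of them above 0 and 1 below: SSRP1 was at 0.41 (log2, SE 0.16, limma adjusted p = 0.753), AFF3 at 0.40 (SE 0.18, adjusted p = 0.84) and HEXIM1 at -0.36 (SE 0.16, adjusted p = 0.825). SSRP1 encodes a subunit of the histone chaperone FACT, AFF3 a relative of the AFF4 scaffold, and HEXIM1 the protein that holds P-TEFb inactive.

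AFF3 was the listed gene with the largest difference for DHT over DMSO, 0.65 (log2, SE 0.25, limma adjusted p = 0.467). Its 3 DHT arrays ranged from 8.44 to 9.19 and its DMSO arrays from 7.68 to 8.35, with no overlap. It was the 1 listed gene of 39 with all DHT arrays above all DMSO arrays, against 7.94% of all probes. HEXIM1 ranged from 7.99 to 8.47 with DHT and from 8.49 to 8.85 with DMSO, also with no overlap and with DHT lower, a difference of -0.36 (SE 0.22, adjusted p = 0.758). It was the 1 listed gene with all DHT arrays below all DMSO arrays, against 6.16% of all probes.

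The other genes named by the stated rule were less far from 0 over both antagonists. ZC3H8, of the little elongation complex, was at 0.26 (SE 0.13), GTF2F1, the large TFIIF subunit, at -0.16 (SE 0.12), and TCEA1, which encodes TFIIS, at -0.24 (SE 0.15) by its brightest probe. The other 2 TCEA1 probes gave -0.16 and 0.10, so its probes disagreed in sign. All 4 genes of the little elongation complex were above 0 over both antagonists (0.03 to 0.26), none at an unadjusted p under 0.05. The other lists were mixed or went the other way. Above 0 were 5 of 6 kinases and histone chaperones, 3 of 5 other super elongation complex subunits and 3 of 5 DSIF and NELF genes. For TFIIS with elongin and TFIIF it was 4 of 8, for P-TEFb regulators 1 of 4, for the PAF1 complex 1 of 5 and for the SIAH genes 0 of 2. Of the 8 lists, 0 genes were called in any of the 9 contrasts.

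**Figure D5:**
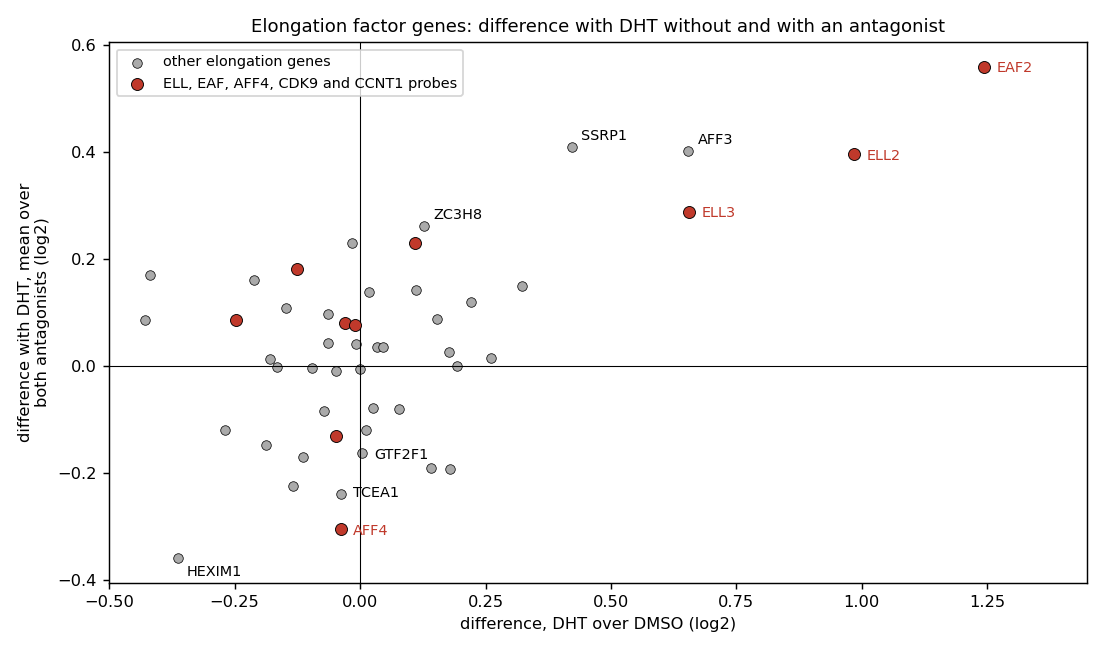
Difference with DHT without antagonist (horizontal axis, log2) and averaged over both antagonists (vertical axis, log2) for the 39 other elongation genes (grey, brightest probe) and the 10 member probes (red). EAF2 and ELL2 lie farthest to the right at 1.24 and 0.98, ELL3 and AFF3 near each other at 0.66 and 0.65, and HEXIM1 and AFF4 lowest at -0.36 and -0.30.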

How the data were processed

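The authors took signals from GenomeStudio, applied background subtraction and quantile normalization in lumi, and deposited log2 values (5.81 to 14.82, median 6.60 on every array). Whether this log2 scale is plain or variance-stabilized is not given in the sources used here, and fold changes of dim probes would be smaller on the latter. A deposited table of unnormalized signals (36 columns) carries array codes not tied to samples and was not used here. No depth applies to arrays, and their number limits the precision. Chip and scan batches were not given for these arrays and were not tested.

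The array holds 47223 probes. Tests ran on 28334, those whose mean exceeded the 40th percentile of probe means (6.31), 19629 of them with a gene symbol from the platform annotation. Using limma 3.58.1 (R 4.3.3), group means were estimated over all 18 arrays together (12 residual degrees of freedom, empirical Bayes, Benjamini-Hochberg adjustment over all tested probes, threshold 0.05). Single values over both antagonists were tested by exact two-sided permutation in python 3.11.15, with figures from matplotlib 3.10.9. The main limma fit was tried on simulated data for DHT over DMSO and for the response over both antagonists only. The simulated noise was independent between arrays. The other contrasts, the alternative fits and the permutation tests were not simulated.

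The genes, lists and tests were chosen with earlier results of these data known. Named genes were all member probes, the 3 highest and 3 lowest listed genes by moderated t over both antagonists (and any called), and the 5 probes most correlated with EAF2 and with ELL2. The brightest probe stood for a listed gene. Motifs were searched in RefSeq promoter windows of GRCh38.p14.

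Replicate numbers follow the sample titles, and the descriptions give another number for 11 of 18 arrays. Deviations of same-numbered arrays from their group means correlated above 0.1 in every pair for 5 of the 15 pairs of groups: MJC13 without and with DHT (0.157, 0.404 and 0.253), DMSO and flutamide (0.174, 0.487 and 0.601), DMSO and MJC13 (0.285, 0.104 and 0.231), DHT and its mixture with flutamide (0.393, 0.549 and 0.392), and DHT and flutamide (0.314, 0.152 and 0.18). This did not hold for DMSO with DHT (0.0184, 0.0727 and 0.0953) or the flutamide arrays without and with DHT (0.268, 0.273 and -0.0145). Alternatives were the filter (none, or the 60th percentile), robust moderation with a trend, fitting only the groups compared, either replicate number as a block, and leaving out each array.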

Additional observations from a re-analysis of the deposited data

How the results depend on the processing

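For DHT over DMSO, 1 member was called. The count was 0 with no filter on dim probes, in a fit of the compared groups alone and with the description number as a block, 2 with the replicate number as a block (EAF2, adjusted p = 0.0121, and ELL3, adjusted p = 0.0393, by limma), and 0 to 1 with each array left out. The 54 probes called in all became 33 with no filter, 35 with a filter at the 60th percentile, 87 in the fit of the compared groups alone, 469 with the replicate block and 7 to 37 with each array left out (7 without DMSO replicate 1, 10 without DMSO replicate 2, 9 without DHT replicate 3, 24 and 27 without DHT replicate 1 or 2).

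Over both antagonists the 1 probe called became 0 with no filter, 211 with the replicate block and 0 to 11 with each array left out (11 without replicate 2 of DHT with MJC13, and 0 without flutamide replicate 1, MJC13 replicate 1 or 2, or replicate 1 or 3 of DHT with MJC13). The replicate block called 4 probes with flutamide and 5 with MJC13, against 0. DHT with MJC13 over DHT called 1 probe with no filter, 1 with the replicate block and 0 to 2 with each array left out (2 without replicate 3 of DHT with MJC13), against 0. No member was called in any of these, and the block changed no other member count. The cause of these shifts was not tested.

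The EAF2 to EAF1 change over both antagonists ran from 0.21 to 0.49 and that of ELL2 to ELL from 0.22 to 0.41 with each array left out. The latter kept its value of 0.32 under the replicate block, at an exact p of 0.0938. For AFF4 over both antagonists, pairing same-numbered arrays moved the exact p from 0.045 to 0.125, and for ELL2 from 0.06 to 0.156. EAF2 and ELL3 were at 0.0312 under it, the smallest that 6 pairs allow.

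Values near 0 changed sign. AFF4 for DHT over DMSO was 0.016 with the description block and -0.16 to 0.11 with each array left out (0.11 without DMSO replicate 3, 0.0042 without DHT replicate 3). The ELL3 difference of responses ran from -0.047 to 0.11 with each array left out. With each array left out, flutamide over DMSO ran from -0.10 to 0.25 for ELL2 (below 0 without DMSO replicate 3 or flutamide replicate 2) and from -0.17 to 0.063 for ELL3 (above 0 without DMSO replicate 1). MJC13 over DMSO was 0.018 for EAF2 with the description block and ran from -0.15 to 0.039 for EAF2 (above 0 without MJC13 replicate 1), from -0.31 to 0.24 for ELL2 (above 0 without DMSO replicate 2 or MJC13 replicate 3) and from -0.17 to 0.058 for ELL3 (above 0 without DMSO replicate 1 or MJC13 replicate 3). Over both antagonists EAF2, ELL2, ELL3 and AFF4 kept their direction in all 18 alternatives of the limma fit (EAF2 0.49 to 0.62, ELL2 0.26 to 0.54, ELL3 0.24 to 0.33, AFF4 -0.37 to -0.24).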
